A study of Homo sapiens with 10 samples.

Results

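A pair of libraries was set against each other: the edited line V1PAKI at day 10 of neural differentiation and its wild-type counterpart Ctrl at the same day. Of 42335 gene symbols with an FPKM value (fragments scaled to transcript length and library size), the 14218 with at least 1 FPKM in either library were compared. The measure was the log2 difference, log2((V1PAKI + 1)/(Ctrl + 1)), so a positive value means more transcript in V1PAKI and a value of 1 is a 2-fold difference on the FPKM + 1 scale. With 1 library per line there was no replicate check. Every difference below therefore describes this pair of libraries and carries no error, no p-value and no statement about the genotype as such.

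The series followed H9 cells, a human embryonic stem cell line, by bulk RNA sequencing of total RNA at day 0, day 4, day 10 and day 16, the last in arms labelled D and V. Ctrl was wild type and V1PAKI carried the genotype SOX1-OT V1 PAKI, an abbreviation that the labels do not explain. They also do not say whether V1PAKI is 1 clone or several. Per the labels' protocols, all cultures grew first as floating embryoid bodies, went into a neural medium with heparin at day 4 and were plated at day 7. The day 10 libraries were thus taken 3 days after plating, and Shh and the agonist SAG were given from day 10 for ventral telencephalon. The study's title places the edited transcript in a pathway with HDAC10, a histone deacetylase, and SOX1.

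An embryoid body is a ball of stem cells that differentiates in several directions at once. Neural induction depends on keeping BMP, WNT and NODAL signals low, and cells that receive those signals turn instead to mesoderm, endoderm, surface ectoderm or amnion. A culture at this age therefore commonly holds neuroepithelium with transcription factors such as SOX2, SIX3 and LHX2 beside non-neural cells that make collagens, keratins or yolk sac proteins. In bulk RNA, fewer cells of a type and less RNA per cell cannot be told apart.

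The pair differed strongly by transcript GC content, the share of G and C bases, and every result below has to be read beside that. Coding stretches of 4 genes show what this means, each the 120 bases at the middle of the coding sequence of a named gene, with G and C in capitals. They are the genes with the lowest and highest coding GC content among named genes that differed by at least 1 in each direction, taken from GENCODE 29 on GRCh38.
TOP2A: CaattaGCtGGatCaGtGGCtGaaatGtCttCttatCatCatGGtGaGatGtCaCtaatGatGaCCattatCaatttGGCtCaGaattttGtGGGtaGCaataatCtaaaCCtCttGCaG
SOX21: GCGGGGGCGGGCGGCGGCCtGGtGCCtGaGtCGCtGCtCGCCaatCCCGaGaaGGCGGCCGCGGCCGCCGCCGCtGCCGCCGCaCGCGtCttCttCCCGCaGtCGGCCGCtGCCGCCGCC
AFP: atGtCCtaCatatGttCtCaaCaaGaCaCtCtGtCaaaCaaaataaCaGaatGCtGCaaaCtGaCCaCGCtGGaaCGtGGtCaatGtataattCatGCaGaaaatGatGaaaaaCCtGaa
UTF1: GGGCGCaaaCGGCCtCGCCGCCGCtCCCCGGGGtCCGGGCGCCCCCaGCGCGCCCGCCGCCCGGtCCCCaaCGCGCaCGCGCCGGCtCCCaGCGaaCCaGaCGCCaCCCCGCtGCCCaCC
TOP2A, a DNA topoisomerase of dividing cells at chr17:40388516-40417950 (minus strand), had 38.3% G and C in the stretch and was higher in V1PAKI. SOX21, a SOX factor of neural progenitors at chr13:94709622-94712399 (minus strand), had 80.8% and was higher too. AFP, the fetal serum protein alpha-fetoprotein at chr4:73431138-73456174 (plus strand), had 37.5% and was lower. UTF1, a chromatin protein of stem cells at chr10:133230274-133231558 (plus strand), had 83.3% and was lower. The trend below is measured on whole transcripts, whose GC content can differ from that of the stretch. It was 39.1% for TOP2A, 55.3% for SOX21, 38.8% for AFP and 76.8% for UTF1, so SOX21 was much less GC-rich as a transcript. TOP2A and UTF1 went with the overall trend, in which GC-poor transcripts were higher and GC-rich ones lower, while SOX21 and AFP went the other way.

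Over all 14218 genes, 537 (3.78%) were higher in V1PAKI by at least 1 and 1059 (7.45%) were lower by at least 1, with a median of -0.04. The share of lower genes among those that differed was 66.4%. It was 46.7% with TPM in place of FPKM and 48.2% with libraries rescaled without mitochondrial, ribosomal protein and small RNA genes. These settings moved the median of all genes to 0.08 and 0.09, and with them lower genes were no longer in excess. TPM values are larger than FPKM values here, so the pseudocount and filter of 1 also weigh less with TPM. With a pseudocount of 0.1 on FPKM the share was 60.3%. Genes just inside the filter, with 1 to 1.1 FPKM in the higher library, numbered 363 with a median of -0.0001. The 403 genes just outside it, at 0.9 to 1 FPKM, had a median of -0.02.

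Genes were split into 10 equal groups by GC content. In the group with the least G and C, 18.0% were higher by at least 1 and 0.354% were lower. The group with the most G and C showed the reverse, with 0.213% higher and 25.8% lower. Median differences went from 0.66 in the lowest group to -0.74 in the highest, a gap of -1.40. With genes filtered and grouped anew at each other stage, gaps were 0.58 at d0, 0.17 at d4, -0.01 at d16D and -0.03 at d16V. Across the 14103 genes with a reference transcript, Pearson's r between GC content and the day 10 difference was -0.68 and Spearman's rho -0.73. Genes are not independent replicates, and all points share the same 2 libraries. Against the mean of all 10 libraries, both day 10 libraries stood apart in opposite directions: the gap was -0.80 in V1PAKI d10 and 0.51 in Ctrl d10. Ctrl d0 had a gap of -0.66, and the other 7 libraries lay between -0.13 and 0.26. Whether this comes from the libraries or from the cells was not tested.

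**Figure D1:**
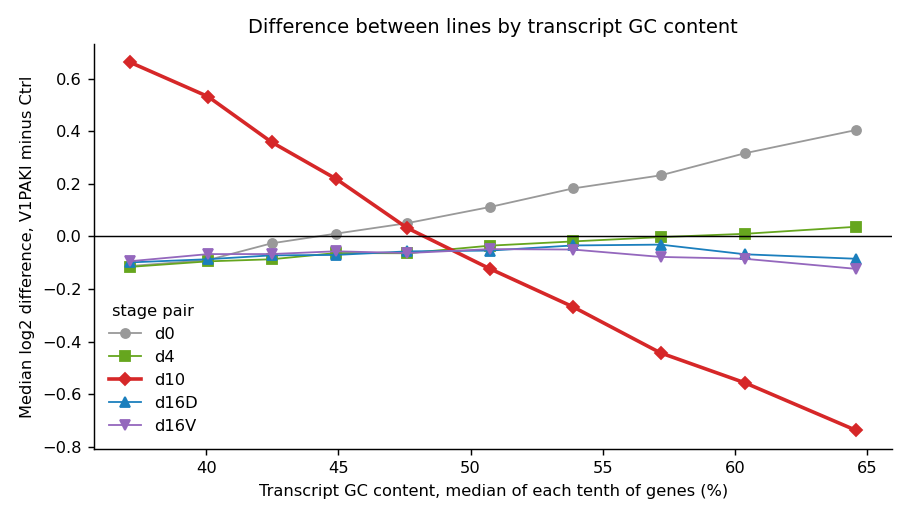
Median log2 difference (V1PAKI minus Ctrl, y axis) against the median transcript GC content in percent (x axis) of 10 equal groups of the genes measured at day 10, with 1 line for each stage pair. The d10 line goes from 0.66 to -0.74, while the d4, d16D and d16V lines stay near 0 and the d0 line slopes the other way.

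For each list of marker genes the difference is therefore also given with the smooth trend on GC content and transcript length removed. That left 217 genes (1.54% of 14103) higher by at least 1 and 484 (3.43%) lower by at least 1. The trend is itself estimated from these 2 libraries, so it can also remove a difference that belongs to genes of a given GC content.

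Non-neural transcripts were lower in V1PAKI at day 10, while neural transcripts were about level in the median and higher in the sum. The 157 genes of 8 non-neural lists summed to 4414 FPKM in Ctrl and 1475 in V1PAKI. The 106 genes of 5 neural lists summed to 877 FPKM in Ctrl and 1162 in V1PAKI. The ratio of the sums was thus 5.03 in Ctrl d10 and 1.27 in V1PAKI d10. In the other 8 libraries this ratio was 1.74 and 1.64 at d0, 1.63 and 2.18 at d4, 0.627 and 5.804 at d16D, and 0.788 and 0.155 at d16V, in Ctrl and V1PAKI. By this ratio the line with more non-neural transcript changed from stage to stage. The non-neural lists also hold genes expressed in stem cells, and at d0 they summed to 825 FPKM in Ctrl and 962 in V1PAKI. The ratio is therefore not a measure of non-neural differentiation alone.

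Of the 157 non-neural genes, 119 reached 1 FPKM in Ctrl d10 and 86 in V1PAKI d10, and 56 and 35 reached 10 FPKM. For the 106 neural genes these numbers were 71 and 65 at 1 FPKM and 27 and 28 at 10 FPKM. The most abundant non-neural transcripts in Ctrl were COL3A1, SPARC and KRT18. In V1PAKI they were ACTC1, CLDN6 and FN1, at 137, 112 and 95.2 FPKM. Of these, CLDN6 was already abundant in the stem cells, at 199 FPKM in Ctrl d0 and 240 in V1PAKI d0.

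Among the 119 non-neural genes that passed the filter, 0 were higher by at least 1 and 78 (65.5%) were lower, with a median of -1.31 against -0.04 over all genes. All 157 genes without a filter had a median of -0.97. With the trend removed, 0 of the 119 were higher and 55 lower by at least 1, and the median was -0.95. The 74 neural genes that passed held 10 higher (13.5%) and 5 lower (6.76%), against 3.78% and 7.45% over all genes. The share higher was thus above the background and the share lower near it. The median of these neural genes was 0.04. With the trend removed 10 were higher and 2 lower by at least 1, and the median was 0.18. All 106 neural genes without a filter had a median of -0.01. Since a gene can pass the filter through the library where it is high, these counts and medians describe the pair and are not a test. The counts of each list below are likewise to be read beside the shares over all genes. Some lists lay near the share lower, such as retinoic acid genes (7.69%) and sterol and fatty acid synthesis genes (5%).

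**Figure D2:**
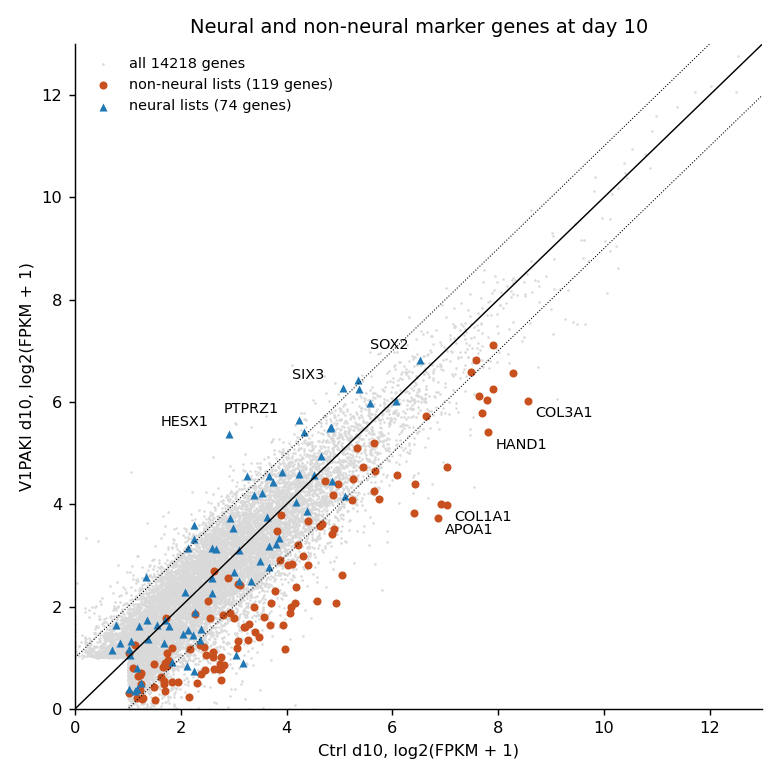
Level of each gene in Ctrl d10 (x axis) and V1PAKI d10 (y axis) as log2(FPKM + 1), with all 14218 genes in grey, 119 non-neural list genes as circles and 74 neural list genes as triangles. The solid line marks equal levels and the dotted lines a difference of 1. Of the circles 78 lie on or below the lower dotted line and 0 above the upper one, while 10 triangles lie above and 5 below.

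Most genes of the neuroepithelium were at similar or higher levels in V1PAKI. In the neural progenitor list 4 of 24 measured genes were higher by at least 1 and 1 was lower, with a median of 0.43 with and without the trend. Of the 24, 17 lay above 0 and 7 below. SOX2, the factor shared by stem cells and neural progenitors, stood at 91.3 FPKM in Ctrl and 112 in V1PAKI. NES, an intermediate filament of neural progenitors, stood at 66.3 and 63.6 FPKM. PAX6, a regulator of eye and cortex, was low in both libraries at 2.26 and 2.31 FPKM.

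PTPRZ1, a receptor phosphatase of neural progenitors, was at 17.9 FPKM in Ctrl d10 and 49.0 in V1PAKI d10, a 2.74-fold difference. In Ctrl it was at 56.0 at d0, 27.9 at d4, 54.2 at d16D and 43.8 at d16V, and in V1PAKI at 47.4, 24.8, 19.99 and 40.8. Ctrl d10 was thus the lowest of the 10 libraries for this gene. LIX1, another gene of early neural cells, stood at 8.54 and 22.6 FPKM, and DACH1, a nuclear factor of eye and brain, at 3.37 and 7.80. The neural cadherin CDH2 stood at 40.4 and 75.5 FPKM, a difference of 0.89.

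SOX21 stood at 19.2 FPKM in Ctrl d10 and 41.7 in V1PAKI d10. With the trend removed its difference was 1.42, above the 1.08 of the deposited values. SOX3, a SOX factor of the same subgroup as SOX2, was at 10.5 and 17.7 FPKM, a difference of 0.70 that became 1.39 with the trend removed. POU3F1, a POU factor of neuroepithelium, was at 9.47 and 17.2 FPKM (0.80, or 1.66 with the trend removed). The only progenitor gene lower by at least 1 was HES5, a target of Notch, at 3.31 and 0.775 FPKM, where the difference went from -1.28 to -0.43 with the trend removed. SOX1, also a member of this list, was lower by less than 1 on this scale, at 1.26 and 0.306 FPKM.

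The 3 genes in the study's title were all low in both libraries. SOX1-OT, a noncoding RNA gene at chr13:112107119-112108015, was at 0.0513 FPKM in Ctrl d10 and 0.0432 in V1PAKI d10, below the filter. SOX1, at chr13:112067647-112070488, stood at 1.26 FPKM in Ctrl d10 and 0.306 in V1PAKI d10, a difference of -0.79, or -0.28 with the trend removed. HDAC10 stood at 2.49 and 1.05 FPKM, a difference of -0.77 that was at -0.0015 with the trend removed. Its transcript is GC-rich, at 66.9%. SOX1-OT has 1 deposited value per library, in which the V1 transcript is not distinguished from others.

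The labelled cell type, a neural progenitor derived from stem cells, was thus met in part. SOX2 and NES were well measured in both libraries, whereas SOX1 lay below 1.3 FPKM and the stem cell factor POU5F1 was still at 134 FPKM in Ctrl and 62.7 in V1PAKI.

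Anterior forebrain and eye field genes included the largest neural differences. Of 13 measured, 3 were higher by at least 1 and 1 was lower, with a median of 0.28, or 0.33 with the trend removed. HESX1, a homeobox repressor of the anterior neural plate, stood at 6.53 FPKM in Ctrl d10 and 40.6 in V1PAKI d10, a 6.22-fold difference. Other Ctrl libraries had it at 4.37 at d0, 13.1 at d4, 0.767 at d16D and 8.71 at d16V, and in V1PAKI at 5.59, 6.37, 1.202 and 8.59. V1PAKI d10 was the highest of the 10 libraries, and the day 10 pair was the only one in which the 2 lines lay apart by more than 1.

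SIX3, which patterns the anterior forebrain and eye, stood at 32.5 FPKM in Ctrl d10 and 76.3 in V1PAKI d10. Ctrl values at the remaining stages were 0.101, 15.3, 27.5 and 71.9 FPKM at d0, d4, d16D and d16V, and in V1PAKI at 0, 5.95, 11.9 and 59.9. V1PAKI was lower than Ctrl in each of the other 4 pairs. FEZF1, a zinc finger factor of the forebrain, stood at 39.5 and 84.9 FPKM at day 10, a difference of 1.08. LHX5, SIX6 and OTX2, factors of forebrain and eye, lay between 0.66 and 0.80.

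SP8, a zinc finger factor active in the telencephalon, stood at 9.08 and 4.68 FPKM, and the eye genes RAX and LHX2 stood at 24.3 and 29.6 and at 27.8 and 44.3.

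Midbrain and hindbrain genes were mixed, with 1 of 10 higher and 2 lower and a median of -0.49, or -0.05 with the trend removed. PAX2, a factor of the midbrain and hindbrain border, stood at 3.74 and 8.97 FPKM. HOXB2, a HOX gene of the hindbrain, stood at 8.03 and 0.866 FPKM, and IRX1 at 4.16 and 1.53. FGF8, the signal of that border, was nearly level at 17.1 and 15.6 FPKM. HOX genes are also active in mesoderm, so HOXB2 is not specific to neural cells.

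Notch and proneural genes, which time the birth of neurons, had 0 of 13 higher and 2 lower, with a median of -0.52, or 0.07 with the trend removed. The list's median thus changed sign with the trend, and its genes had a median GC content of 59.8%. DLL3, a Notch ligand, stood at 3.75 and 0.66 FPKM, and DLL1 at 7.63 and 4.67. HES1 stood at 21.9 and 22.7 FPKM. The proneural factors NEUROG1, NEUROG2 and NEUROD1 all lay below 1 FPKM in both libraries.

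Neuron genes were few at this day, and 15 of 25 passed the filter. Of these, 2 were higher and 0 lower, with a median of 0.20, or 0.16 with the trend removed. MAP2, a microtubule protein of neurons, stood at 3.73 and 11.1 FPKM, and SYT1, a synaptic vesicle protein, at 1.54 and 4.93. Both have GC-poor transcripts and lay below 1 with the trend removed, at 0.88 and 0.77. TUBB3, the neuronal tubulin, whose transcript is GC-rich, stood at 33.3 and 16.9 FPKM, and its difference went from -0.94 to -0.32 with the trend removed. ELAVL3 and ELAVL4, RNA-binding proteins of neurons, lay below 0.2 FPKM in both libraries. The whole list summed to 94.9 FPKM in Ctrl d10 and 92.3 in V1PAKI d10, but to 114 in Ctrl d0 and 151 in V1PAKI d0. Stem cells thus also express part of this list, and its day 10 values do not mark neurons alone.

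The neural crest list, genes of the cells that leave the dorsal neural tube, had 1 of 14 higher and 3 lower, with a median of -0.51, or -0.20 with the trend removed. MSX1, a homeobox factor and BMP target, stood at 14.2 and 1.16 FPKM, and MSX2 at 14.5 and 3.85. SNAI2, which drives cells out of epithelia, stood at 10.6 and 4.51 FPKM. The defining crest factor SOX10 stood at 0.512 and 1.25 and FOXD3 at 2.98 and 1.28. MSX1, MSX2 and SNAI2 are also expressed by mesoderm and mesenchyme.

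Mesenchyme and matrix genes were lower throughout most of their list: 15 of 22 were lower by at least 1 and 0 higher, with a median of -1.44, or -1.55 with the trend removed. COL3A1, a fibrillar collagen at chr2:188974320-189012746, stood at 379 FPKM in Ctrl d10 and 63.7 in V1PAKI d10, 5.96-fold lower. Its remaining Ctrl values were 0 at d0, 6.32 at d4, 102 at d16D and 161 at d16V, and in V1PAKI at 0, 9.48, 701 and 3.44. The lines were near each other up to d4 and lay on opposite sides at d10 and d16D.

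COL1A1, another fibrillar collagen, stood at 130 FPKM in Ctrl d10 and 14.8 in V1PAKI d10, and COL6A2, a beaded filament collagen, at 120 and 15.1. SPARC, a collagen-binding protein, stood at 311 and 93.2 FPKM. DCN, a small proteoglycan with a GC-poor transcript, stood at 11.9 and 2.1, and its difference was -2.06 in the deposited values and -2.72 with the trend removed. LUM, a proteoglycan of the same family, went from -0.93 to -1.59 in the same way. FBN1, a microfibril protein, was the exception at 5.14 and 5.48 FPKM.

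Mesoderm factors had 11 of 17 genes lower and 0 higher, with a median of -1.34, or -1.05 with the trend removed. HAND1, a factor of extraembryonic and heart mesoderm and of amnion and trophoblast, stood at 223 FPKM in Ctrl d10 and 41.4 in V1PAKI d10. Over the remaining stages Ctrl stood at 0 at d0, 6.61 at d4, 8.41 at d16D and 19.9 at d16V, and in V1PAKI at 0.0318, 5.36, 134 and 0.734. The Ctrl d10 value was thus the highest of the 10 libraries. MIXL1, EOMES and TBXT, factors of the primitive streak, stood at 10.1, 5.56 and 3.93 FPKM in Ctrl and at 1.64, 0.722 and 0.428 in V1PAKI. FOXF1, a factor of lateral mesoderm, stood at 7.31 and 1.29, while the heart factor NKX2-5 was level at 2.29 and 2.4.

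Genes of cardiac and smooth muscle had 12 of 17 lower and 0 higher, with a median of -1.15. With the trend removed 3 were lower by at least 1 and the median was -0.67. MYL4 and MYL7, atrial myosin light chains, stood at 17.1 and 11.99 FPKM in Ctrl and at 4.24 and 3.21 in V1PAKI. ACTC1, the cardiac actin, stood at 237 and 137 FPKM and TAGLN, a smooth muscle protein, at 49.7 and 24.1. The heart myosins MYH6 and MYH7 lay below 0.1 FPKM in both libraries.

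Endoderm genes had 7 of 12 lower and 0 higher, with a median of -1.07, or -0.89 with the trend removed. GATA6, a factor of primitive and definitive endoderm, stood at 15.8 FPKM in Ctrl and 2.95 in V1PAKI, and SOX17 at 5.69 and 0.841. FOXA2, a defining factor of endoderm and floor plate, was at 1.80 and 0.345 FPKM. CDX2, a factor of gut and trophoblast, stood at 3.45 and 0.176. CXCR4, a chemokine receptor, stood at 3.80 and 2.63.

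Secreted proteins of yolk sac and liver had the lowest median of the 15 cell type lists shown here, at -1.89, or -1.93 with the trend removed, with 15 of 16 lower and 0 higher. APOA1, the main protein of high-density lipoprotein, stood at 115 FPKM in Ctrl d10 and 12.3 in V1PAKI d10, 9.31-fold lower. Other Ctrl libraries had it at 0.0439 at d0, 13.02 at d4, 107 at d16D and 63.0 at d16V, and in V1PAKI at 0.0543, 20.4, 679 and 2.93. V1PAKI was slightly above Ctrl at d4, below it at d10 and above it again at d16D. TTR, a carrier of thyroid hormone, stood at 29.4 and 3.21 FPKM at day 10.

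AFP stood at 53.01 FPKM in Ctrl d10 and 16.2 in V1PAKI d10, and the fibrinogen chains FGA and FGB at 15.8 and 2.67 and at 10.9 and 2.49. Their transcripts are GC-poor, and the differences were larger with the trend removed: -2.22 against -1.65 for AFP, -2.52 against -2.19 for FGA and -2.16 against -1.77 for FGB. For these genes the difference ran against the GC trend. ALB, the albumin of mature liver, was at 0.34 and 0.174 FPKM.

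Trophoblast and amnion genes had 11 of 19 lower and 0 higher, with a median of -1.04, or -0.88 with the trend removed. IGFBP3, a binding protein of insulin-like growth factors, stood at 198 FPKM in Ctrl and 68.6 in V1PAKI, and the factors GATA2 and GATA3 at 6.08 and 8.73 in Ctrl and 0.820 and 2.18 in V1PAKI. CGA, the alpha subunit of chorionic gonadotropin, stood at 23.6 and 10.9 FPKM, and below 1 FPKM in the other 8 libraries. The beta subunit genes CGB3, CGB5 and CGB8 stood at 4.19, 4.50 and 5.8 FPKM in Ctrl and 0.596, 0.701 and 1.03 in V1PAKI. These 3 are near-identical copies that share reads, so their separate values are uncertain. GABRP, a channel subunit found in amnion, stood at 25.6 and 20.8 FPKM.

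Surface ectoderm and epithelium genes had 7 of 15 lower and 0 higher, with a median of -0.89, or -0.73 with the trend removed. KRT18, a keratin of simple epithelia, stood at 237 FPKM in Ctrl d10 and 75.4 in V1PAKI d10. In Ctrl it was at 59.0 at d0, 58.2 at d4, 13.6 at d16D and 20.4 at d16V, and in V1PAKI at 73.1, 86.9, 73.7 and 7.58. Ctrl d10 held the highest value of the 10 libraries and V1PAKI d10 lay near the stem cell level. KRT8 and KRT19 stood at 221 and 206 FPKM in Ctrl and at 65.1 and 54.4 in V1PAKI. The adhesion genes CDH1 and EPCAM stood at 42.4 and 37.2 in Ctrl and 25.5 and 21.5 in V1PAKI, and keratins of stratified epithelium (KRT5, KRT14 and KRT15) lay at or near 0.

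Of 20 genes of endothelium and blood, 4 passed the filter, 3 of them lower, with a median of -1.19, or -1.11 with the trend removed. The receptors KDR and TEK stood at 28.8 and 8.20 FPKM in Ctrl and 10.5 and 2.03 in V1PAKI, and the endothelial cadherin CDH5 at 2.07 and 0.529. PECAM1, PTPRC and the globin HBE1, which define endothelium and blood, lay below 0.3 FPKM in both libraries.

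Pluripotency genes had 4 of 21 lower and 0 higher, with a median of -0.26, or -0.13 with the trend removed. POU5F1 was at 326 FPKM at d0, 268 at d4, 134 at d10, 5.64 at d16D and 17.6 at d16V in Ctrl, and at 385, 328, 62.7, 34.2 and 6.85 in V1PAKI. Its day 10 difference was -1.08, or -1.001 with the trend removed. GDF3 and NODAL, ligands of the TGF beta family active in stem cells, stood at 7.34 and 6.74 FPKM in Ctrl and 1.78 and 2.57 in V1PAKI. NANOG stood at 4.32 and 2.86, while LIN28A was level at 285 and 308 and LIN28B, whose transcript is GC-poor, stood at 19.99 and 40.5.

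**Figure D3:**
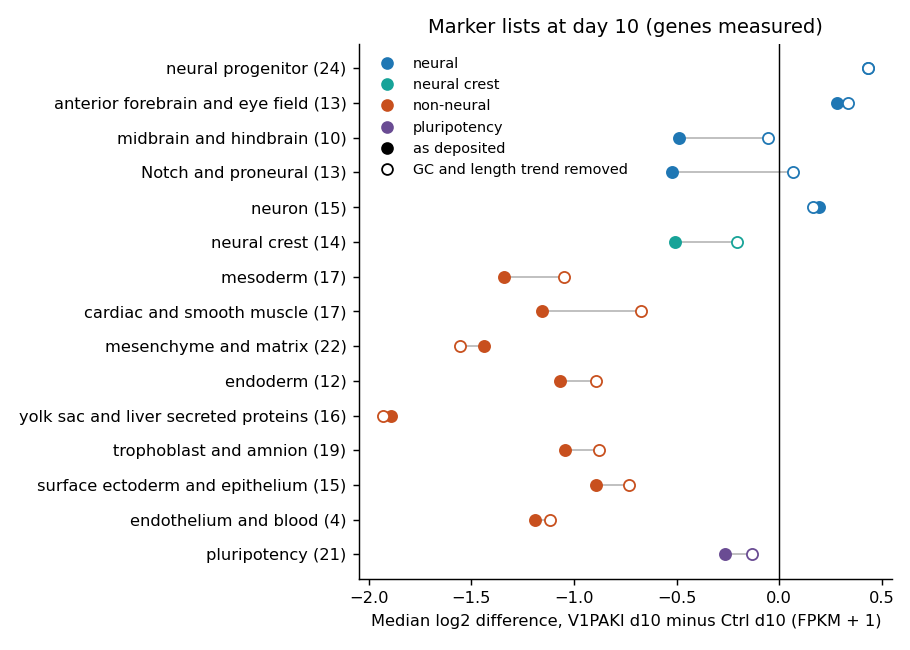
Median log2 difference of each marker list at day 10 (x axis), as deposited in filled circles and with the GC and length trend removed in open circles, with the number of genes measured in brackets. The 8 non-neural lists lie between -1.89 and -0.89 as deposited and between -1.93 and -0.67 with the trend removed, while neural progenitor lies at 0.43 in both.

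Signalling genes were listed by pathway. BMP and TGF beta genes had 7 of 18 lower and 0 higher, with a median of -0.63 with and without the trend. BMP4, a ligand that directs cells to mesoderm and amnion, stood at 27.3 FPKM in Ctrl d10 and 6.31 in V1PAKI d10. Ctrl values at the remaining stages were 0.57 at d0, 8.73 at d4, 2.93 at d16D and 4.16 at d16V, and in V1PAKI at 0.38, 7.47, 17.6 and 0.389. The lines were close at d4 and apart from d10 on.

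The BMP feedback gene BAMBI, a decoy receptor, stood at 58.8 FPKM in Ctrl and 10.1 in V1PAKI, and the inhibitory SMAD6 and SMAD7 at 5.28 and 9.08 in Ctrl and 1.58 and 3.14 in V1PAKI. ID1, a BMP target that holds back differentiation, stood at 104 and 43.9 FPKM. Its difference went from -1.23 to -0.65 with the trend removed, whereas BAMBI went from -2.43 to -2.10. The receptors BMPR1A and BMPR2 stood at 5.54 and 3.99 in Ctrl and 8.39 and 4.38 in V1PAKI, and 5 of the 18 genes lay above 0.

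WNT genes had 5 of 20 lower and 0 higher, with a median of -0.59, or -0.45 with the trend removed. The ligands WNT11 and WNT6 stood at 6.604 and 7.42 FPKM in Ctrl and 0.965 and 1.52 in V1PAKI, and SP5, a direct WNT target, at 7.78 and 1.62. SFRP1, a secreted WNT antagonist of neural progenitors, stood at 122 and 239 FPKM, and FZD5, a receptor of the eye field, at 42.8 and 84.5. The differences of SFRP1 and FZD5 were 0.96 and 0.97, and 5 of the 20 genes lay above 0.

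FGF and MAP kinase response genes had 0 of 16 higher and 2 lower, with a median of 0.11, or 0.18 with the trend removed. FGFR3 stood at 25.1 and 9.83 FPKM and FGF17, a border ligand, at 2.69 and 0.458. The feedback gene ETV5 stood at 6.57 and 13.9. Hedgehog genes had 0 of 10 higher and 1 lower, with a median of -0.21, or 0.20 with the trend removed. That 1 gene was IHH, a ligand of endoderm and cartilage, at 2.69 and 0.255, and the receptor and target PTCH1 stood at 6.08 and 9.69.

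Retinoic acid genes had 0 of 13 higher and 1 lower, with a median of -0.51, or -0.14 with the trend removed. CYP26C1, which breaks down retinoic acid, stood at 1.55 and 0.0093 FPKM, and CRABP1, which binds retinoic acid in the cell, at 156 and 242. Genes of the YAP and SRF response had 0 of 15 past 1 in either direction, with a median of -0.49, or -0.38 with the trend removed. CCN1, a matrix protein induced by YAP, stood at 46.9 and 24.9.

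IGF2 and H19, neighbouring imprinted genes on chromosome 11, were among the most abundant transcripts that differed. IGF2, a fetal growth factor at chr11:2129112-2149603, stood at 552 FPKM in Ctrl d10 and 65.6 in V1PAKI d10, 8.41-fold lower. Its remaining Ctrl values were 0.192, 14.0, 76.9 and 170 FPKM at d0, d4, d16D and d16V, and in V1PAKI at 0.431, 12.3, 541 and 6.44. H19, a noncoding RNA, stood at 434 and 102 FPKM at day 10, and at 39.7 and 405 at d16D.

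Over the imprinted list as a whole 4 of 15 were lower and 0 higher, with a median of -0.05, or 0.08 with the trend removed, 0.08 with TPM and 0.07 with the rescaled libraries. The growth inhibitor CDKN1C stood at 33.8 and 8.64 FPKM and PHLDA2, a placental growth inhibitor, at 5.95 and 1.32. The neural gene NNAT stood at 70.0 and 108, and MEST was nearly level at 96.5 and 118. The list's median hid members on both sides.

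Glycolysis and hypoxia genes had 4 of 23 lower and 0 higher, with a median of -0.59, or -0.38 with the trend removed. ALDOA, a glycolytic aldolase, stood at 176 FPKM in Ctrl d10 and 43.5 in V1PAKI d10. AC093512.2, which overlaps ALDOA on the same strand, stood at 11.2 and 52.2, so the size of the ALDOA difference depends on how shared reads were assigned and is uncertain. SLC2A1, the main glucose transporter, stood at 150 and 55.0. Immediate early genes had 6 of 13 lower and 0 higher, with a median of -0.99 that moved to -0.33 with the trend removed. MYC stood at 8.16 and 3.38 FPKM and the RNA-binding ZFP36 at 4.30 and 0.684.

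Amino acid and ER stress genes had 4 of 17 lower and 0 higher, with a median of -0.61, or -0.21 with the trend removed. ATF4, the factor of the amino acid response, stood at 108 and 52.5 FPKM, while the chaperone HSPA5 stood at 175 and 204. Targets of p53 had 4 of 14 lower and 1 higher, with a median of -0.46, or -0.19 with the trend removed, when none lay past 1. BAX, which promotes cell death, stood at 30.2 and 11.96, and CDKN1A, an inhibitor of the cell cycle, at 14.7 and 7.02.

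Proliferation genes had 1 of 21 higher and 0 lower, with a median of 0.20, or 0.05 with the trend removed. TOP2A was at 46.7 FPKM in Ctrl d10 and 125 in V1PAKI d10, with a difference of 1.40, or 0.79 with the trend removed. Other genes of the cycle lay on both sides and within 1: the mitotic kinases CDK1 and BUB1 stood at 20.6 and 35.7 and at 16.9 and 28.2, and AURKB and the replication gene MCM5 at 34.4 and 21.8 and at 30.1 and 19.8. MCM2 was at 46.3 in both. In sterol and fatty acid synthesis 0 of 20 were higher and 1 was lower, with a median of -0.10, or 0.01 with the trend removed, 0.02 with TPM and 0.05 with the rescaled libraries. HMGCS1 and MVD stood at 33.1 and 61.04 and at 12.05 and 5.08.

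None of the 10 measured histone deacetylases lay past 1 (median -0.35, or 0.02 with the trend removed). HDAC1 was at 29.9 FPKM in both libraries and HDAC2, with a GC-poor transcript, at 13.6 and 21.8. In the SOX1 neighbourhood on chromosome 13, 14 of 16 listed genes were in the table and 10 passed the filter, with 0 past 1 and a median of 0.23, or 0.09 with the trend removed. CUL4A, a ubiquitin ligase subunit of that region, stood at 15.3 and 18.3.

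As background, levels of the next families vary with RNA quality and library preparation as well as with cell type. Mitochondrially encoded genes had 0 of 13 past 1 and a median of 0.29, or 0.16 with the trend removed, and summed to 33574 and 37968 FPKM. Ribosomal protein genes had 12 of 82 lower and 0 higher, with a median of -0.47, or -0.29 with the trend removed. RPL41, with a very short protein, stood at 679 and 187 FPKM and RPS12 at 1003 and 777. Replication-dependent histone genes, whose messages lack a poly(A) tail, had 5 of 20 lower and 0 higher, with a median of -0.30, or -0.13 with the trend removed. Small noncoding RNA genes had 33 of 166 higher and 17 lower, with a median of 0.23, or 0.18 with the trend removed. How these families bear on the marker lists was not tested.

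Among the 12 named genes with the lowest differences were APOA1, IGF2, COL1A1 and COL6A2, given above. TMEM88, a membrane protein that dampens WNT signals and is known from heart mesoderm, stood at 186 FPKM in Ctrl and 19.1 in V1PAKI. CST1, a cystatin, stood at 54.6 and 4.03. NLRP2, a gene linked to early embryos, stood at 10.8 and 0.00536 FPKM at day 10 and was lower in V1PAKI at each stage. TMEM88 and CST1 were higher in V1PAKI at d16D, by 2.16 and 2.44, so they followed the non-neural lists and NLRP2 did not. The rest of these 12 are known only by clone names, and their values are uncertain. AL358472.7 stood at 16.9 and 0.0558 FPKM, and AC132217.1, which overlaps IGF2 on the same strand, at 6.44 and 0.0206.

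Among the 12 with the highest differences were HESX1 and PHF6, a chromatin protein encoded on the X chromosome, at 9.06 and 44.3 FPKM. PTP4A1, a phosphatase, stood at 0.342 and 8.69, but at d0 it was lower in V1PAKI by 2.49. TDRD7, a protein of RNA granules, stood at 2.37 and 13.49. Most of the remaining genes are known only by clone names, such as AC087721.2 at 1.07 and 23.7 FPKM, or are read-through genes such as RPL17-C18orf32. Such genes share sequence with their neighbours, and their values are uncertain. Of genes that passed the filter, 69 were listed at 0 in 1 of the 2 libraries, 47 of them in V1PAKI, and a listed 0 can also be a failed estimate.

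Set beside the other stage pairs, many non-neural genes had their lowest difference at day 10. Of the 119 measured at day 10, 68 (57.1%) had their lowest difference of the 5 pairs at d10 and 0 their highest. All 119 reached 1 FPKM in Ctrl d10, against 86 in V1PAKI d10, so the filter itself favours a low difference at d10. The count is a description and not a test, and it was not made with the GC trend removed. Over all 14218 genes 33.6% had their lowest and 35.2% their highest difference at d10, since this pair also had the widest spread. For the 74 neural genes 12 (16.2%) were lowest and 27 (36.5%) highest at d10, so the share lowest was below the background and the share highest close to it. Most mesoderm genes (16 of 17) and trophoblast genes (15 of 19) were lowest at d10, but 1 of 16 yolk sac genes was, since those were lower still at d16V.

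List medians did not keep their direction from stage to stage. The yolk sac list stood at 0.01 at d0, 0.63 at d4, -1.89 at d10, 2.52 at d16D and -3.69 at d16V. Mesenchyme stood at 0.19, 0.06, -1.44, 1.70 and -1.97 over the same stages. Neural progenitor genes stood at 0.07, -0.21, 0.43, -0.48 and 0.00. Where non-neural lists were lower in V1PAKI at d10 they were higher at d16D, and the neural progenitor list lay on the other side at both. Each pair is 1 library per line, so culture-to-culture spread and genotype cannot be told apart.

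**Figure D4:**
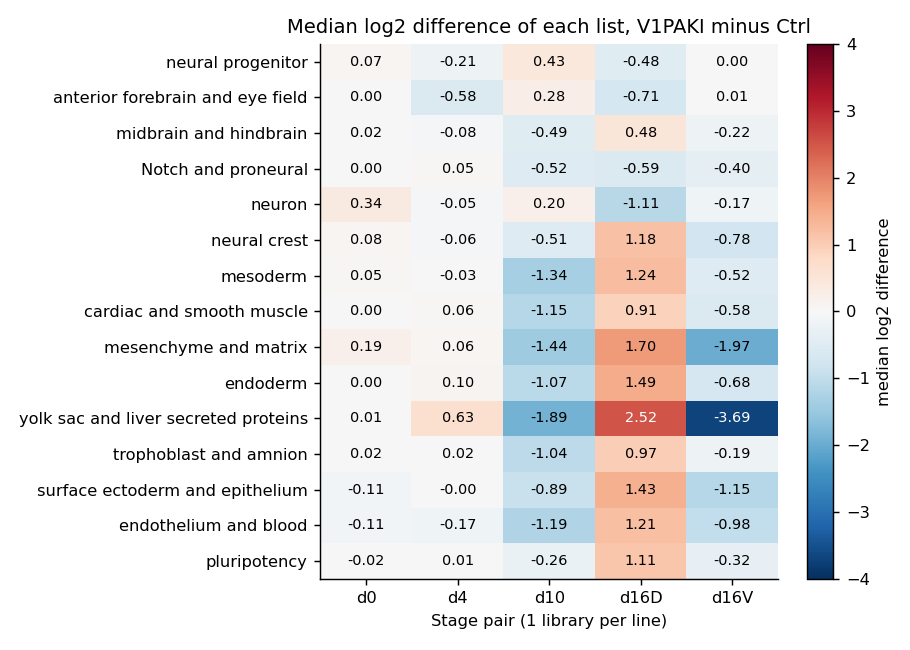
Median log2 difference, V1PAKI minus Ctrl, of each marker list (rows) at each stage pair (columns), over the genes measured at day 10. Blue is lower and red higher in V1PAKI. The non-neural lists are blue at d10, red at d16D and blue again at d16V, with yolk sac and liver secreted proteins at -1.89, 2.52 and -3.69.

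**Figure D5:**
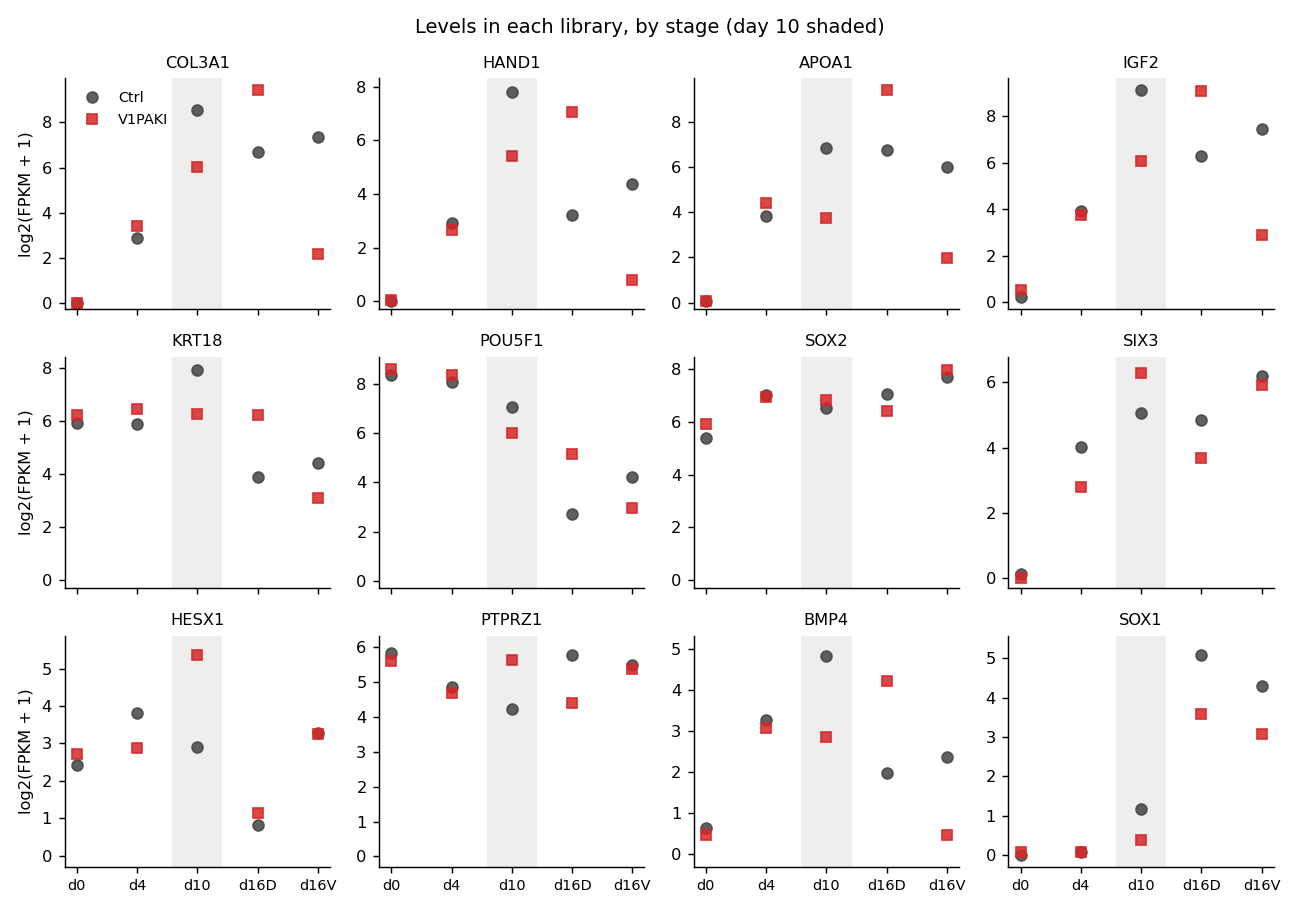
Level of 12 genes as log2(FPKM + 1) (y axis) in each of the 10 libraries, by stage (x axis), with Ctrl as circles, V1PAKI as squares and day 10 shaded. COL3A1, HAND1, APOA1, IGF2 and KRT18 are higher in Ctrl at d10 and in V1PAKI at d16D. SIX3 and HESX1 are higher in V1PAKI at d10, and BMP4 is higher in Ctrl at d10 and in V1PAKI at d16D.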

How the data were processed

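Bulk RNA libraries of H9 cells were sequenced after TruSeq preparation, as the labels' protocols state. Values were deposited by the authors as FPKM, 1 per gene symbol. Per the submitters' processing notes, cutadapt 1.18, HISAT2 2.1.0 and Cufflinks were used with GRCh38. Strand setting, annotation and filters were not given in the sources used here. A gene may therefore share reads with an antisense or overlapping partner. FPKM summed to 230767 in Ctrl d10 and 212008 in V1PAKI d10 (200509 to 256270 over the 10 libraries). Read counts are not given, so depth is unknown and no counting interval or detection floor was made. Low values were whole multiples of a common step (within 0.03) in only 11.2% and 8.27% of single-exon cases, so reads were not recovered.

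Differences were log2((V1PAKI + 1)/(Ctrl + 1)), with a pseudocount of 1, for genes reaching 1 FPKM in at least 1 of both libraries, and understate differences of low genes. GC content, length, biotype and position came from GENCODE 29 (39994 symbols matched, 472 more through an older symbol). The trend on GC content and then length was a lowess curve (fraction 0.2, statsmodels 0.14.6 in Python 3.11.15). It was tried on simulated differences, with equal numbers of genes shifted up and down and placed at random over GC content. That trial cannot show whether a difference tied to GC content is kept. Named genes were SOX1-OT, SOX1 and HDAC10, the 12 highest and 12 lowest differences among genes with at least 5 FPKM in the higher library and above 0 in both, up to 6 members of each list by difference and 3 by level, and POU5F1, NANOG, SOX2, PAX6, NES and TUBB3. Members named outside this rule were chosen after their values were seen. The genes and the 34 lists were chosen with earlier results of these data known. Alternatives are in the closing section. 1 library per group allowed no test. Values of some genes are not reported here.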

Additional observations from a re-analysis of the deposited data

Results flagged for a closer look

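The median log2 difference (V1PAKI minus Ctrl) of each non-neural list lay on opposite sides of 0 at d10 and at d16D, and all lists of that class are named here for that reason. The difference between the stages was not tested, since each stage has 1 library per line, and nothing here says why it occurred. Over all non-neural lists the median was -1.31 at d10 and 1.46 at d16D. Yolk sac and liver secreted proteins stood at -1.89 and 2.52, mesenchyme and matrix at -1.44 and 1.70, and mesoderm at -1.34 and 1.24. Endothelium and blood stood at -1.19 and 1.21, cardiac and smooth muscle at -1.15 and 0.91, and endoderm at -1.07 and 1.49. For trophoblast and amnion the medians were -1.04 and 0.97, and for surface ectoderm and epithelium -0.89 and 1.43.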

How the results depend on the processing

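The counts of genes past 1 moved with the settings. Against 537 genes higher, there were 1228 with a pseudocount of 0.1, 847 with 0.5, 2488 with TPM and 821 with libraries rescaled without mitochondrial, ribosomal protein and small RNA genes. The count was 217 with the GC and length trend removed, 210 with the GC trend alone removed (an alternative added after seeing the data) and 16 at a threshold of 2. Against 1059 genes lower, these were 1864 with a pseudocount of 0.1, 2180 with TPM, 484 and 514 without the trends, and 92 at a threshold of 2. TPM also tests more genes, since more reach 1, and the pseudocount of 1 weighs less there. The median of the non-neural genes lay between -1.70 and -0.95 over 11 alternatives and that of the neural genes between -0.01 and 0.34. The GC gap was not computed for all of these alternatives. Where it was computed with the trend left in, it lay between -1.80 and -1.40. With the GC and length trend removed the day 10 gap was 0.03. Of 142 named genes past 1 with a reference transcript, 86 stayed past 1 in the same direction with the trend removed, and of 7 lists past 1 in the median 4 did. Depth is unknown, so genes near 1 FPKM carry an unknown counting error. No paired analysis was possible because each line has 1 library at each stage.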

Other observations

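Genes on the X chromosome made up a larger share of those higher in V1PAKI at day 10 with the GC and length trend removed than of all genes. Of the 217 such genes 36 (16.6%) lay on X, which holds 530 (3.76%) of the 14103 genes. On X 6.79% of genes were higher by at least 1, against 0.42% to 3.47% on single autosomes, and the median was 0.13 against -0.03 to 0.03. At d0, d4, d16D and d16V the X median was 0.02, 0.08, 0.04 and 0.06. Among the 36 were PHF6 (9.06 and 44.3 FPKM in Ctrl and V1PAKI), EIF1AX, a translation factor (25.2 and 90.1), HPRT1, of purine salvage (13.4 and 37.7), TMSB4X, an actin-binding peptide (395 and 859), and GPC3, a surface proteoglycan (129 and 300). SOX3 of the neural progenitor list, at 10.5 and 17.7 FPKM, was also among the 36. The pattern on X was noticed in these values and has no replicate check.

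Genes annotated as small nuclear RNA, a class that includes copies such as RNU6-1016P, had 12 of 27 (44.4%) higher by at least 1 and 1 lower. Their median was 0.88, or 0.34 with the trend removed. The 22 mitochondrial tRNA genes had 0 higher and 6 lower, with a median of -0.43, or -0.97 with the trend removed. Transcripts this short are poorly captured by standard libraries and their FPKM values are uncertain.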
